A study of Mus musculus with 11 samples.

Results

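The nuclear genes of the mitochondrial respiratory complexes were taken as every gene of the deposited count table whose symbol begins with Nduf, Uqcr, Atp5 or Cox followed by 4, 5, 6, 7 or 8. This rule found 91 of the 19058 genes in the table, and it used names and no measured value. The genes were sorted by complex into 7 core subunits of complex I, 29 accessory subunits, 8 assembly factors, 4 genes annotated as copies of complex I genes, 8 genes of complex III, 19 of complex IV and 16 of complex V. RNA was sequenced from whole lacrimal glands, the tear-producing glands that become inflamed in male mice of the non-obese diabetic (NOD) strain, a model of Sjögren's disease. All 11 mice were male and on the NOD background: 3 were wild type (WT), 5 were *Tlr7* KO and 3 were *Ifnar1* KO. The *Tlr7* KO line carried a 2-base-pair CRISPR deletion in the gene of an endosomal RNA sensor, bred to homozygosity from a founder backcrossed to NOD, and the *Ifnar1* KO line (NOD.Ifnar1em16/em16) lacked a chain of the type I interferon receptor. The WT and *Tlr7* KO mice were 20 to 22 weeks old. The age of the *Ifnar1* KO mice was not given in the sources used here, and the authors left out 1 further *Ifnar1* KO sample as an outlier whose inflammation was like that of WT, so the *Ifnar1* KO group was chosen in part on the state of the gland. The same WT mice served in both comparisons with WT, and each library came from 1 gland of 1 mouse, so the p-values measure the spread between mice.

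The respiratory chain sits in the inner mitochondrial membrane. Complex I takes electrons from NADH, complex III passes them from ubiquinol to cytochrome c, complex IV gives them to oxygen, and complex V uses the proton gradient that these steps build to make ATP. Most subunits are encoded in the nucleus and imported, and a small core is encoded by the mitochondrial DNA, so a working chain needs both genomes. Secretory epithelium such as the acini of the lacrimal gland uses this ATP for protein synthesis and ion transport, and striated muscle uses its own isoforms of several complex IV subunits.

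The promoters of the 4 members with the largest called rises in *Tlr7* KO glands are shown, since these 4 genes come from different parts of the chain (complexes I, III and V and an assembly factor) and their start regions can be read side by side. The sequences are from RefSeq. Each runs 5′ to 3′ from 250 bases before to 50 bases after the annotated start (GRCm38.p6), with capitals marking matches, on either strand, to the core letters searched for nuclear respiratory factor 1 (GCGCATGC), ETS factors (CCGGAAG) and YY1 (AAGATGGC). *Ndufc2* is read from chr7:97399753-97400052 on the plus strand, *Ndufaf4* from chr4:24897833-24898132 on the plus strand, *Atp5g1* from chr11:96075582-96075881 on the minus strand and *Uqcr11* from chr10:80406772-80407071 on the minus strand.
Ndufc2: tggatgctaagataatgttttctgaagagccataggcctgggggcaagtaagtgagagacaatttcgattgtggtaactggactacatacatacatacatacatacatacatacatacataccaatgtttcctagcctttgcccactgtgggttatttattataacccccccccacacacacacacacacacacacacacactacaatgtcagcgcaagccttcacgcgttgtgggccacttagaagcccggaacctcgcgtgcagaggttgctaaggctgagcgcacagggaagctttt
Ndufaf4: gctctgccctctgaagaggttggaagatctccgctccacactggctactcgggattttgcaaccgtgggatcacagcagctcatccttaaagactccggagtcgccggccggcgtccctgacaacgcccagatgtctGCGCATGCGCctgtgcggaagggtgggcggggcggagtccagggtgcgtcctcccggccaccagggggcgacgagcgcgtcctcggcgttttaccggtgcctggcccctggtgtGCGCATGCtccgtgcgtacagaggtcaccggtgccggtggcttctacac
Atp5g1: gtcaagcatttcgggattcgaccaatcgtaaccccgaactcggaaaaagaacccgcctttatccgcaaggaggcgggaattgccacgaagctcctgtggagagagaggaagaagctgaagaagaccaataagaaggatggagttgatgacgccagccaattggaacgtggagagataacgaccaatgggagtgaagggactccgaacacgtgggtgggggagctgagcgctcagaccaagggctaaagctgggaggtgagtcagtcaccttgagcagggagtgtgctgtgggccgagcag
Uqcr11: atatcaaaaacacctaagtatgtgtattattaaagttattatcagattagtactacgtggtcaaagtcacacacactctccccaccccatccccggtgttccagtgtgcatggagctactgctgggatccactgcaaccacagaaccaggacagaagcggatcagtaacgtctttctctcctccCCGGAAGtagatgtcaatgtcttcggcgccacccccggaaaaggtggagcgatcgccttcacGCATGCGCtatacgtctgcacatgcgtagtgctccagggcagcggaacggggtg
The *Ndufaf4* promoter held 3 matches to the nuclear respiratory factor 1 core, of which the first 2 overlap on opposite strands, and the *Uqcr11* promoter held 1 match to that core and 1 to the ETS core. The *Ndufc2* and *Atp5g1* windows held none of the 3 cores in these letters.

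A promoter was found for 71 of the 91 members. The nuclear respiratory factor 1 core was in 10 of these (14.1%), against 3.05% of the 27025 genes with a promoter of the same length. The ETS core was in 17 (23.9%) against 9.93%, and the YY1 core in 11 (15.5%) against 3.19%. Among the 12 members with a promoter that were called higher in *Tlr7* KO glands, 3 held the nuclear respiratory factor 1 core (*Ndufaf4*, *Uqcr11* and *Uqcrc1*), 1 the ETS core (*Uqcr11*) and 1 the YY1 core (*Ndufa9*). A match is a description of letters in the window and not a bound site.

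Total counts were 20512315 to 28814250 per mouse, and the 10 most abundant genes took 54.0% to 65.9% of them. The respiratory members took 0.217% to 0.344%. *Tlr7* had 86, 36 and 99 counts in the WT mice, 12 to 25 in the *Tlr7* KO mice and 6 to 22 in the *Ifnar1* KO mice, so it was lower in *Tlr7* KO than in WT (edgeR adjusted p = 0.00364) and did not separate the 2 KO groups from each other (adjusted p = 0.585). The counts of *Ifnar1* did not separate them either (adjusted p = 0.717), so neither targeted gene checks which KO group a library belongs to. Transcripts of B cells were lower in both KO groups, with summed levels in CPM (counts scaled to library size, after TMM factors that centre the bulk of genes) of 280, 80.4 and 245 in the WT mice, 6.42 to 50.4 in *Tlr7* KO and 2.55 to 20.2 in *Ifnar1* KO (8 of 8 markers called in each). WT 2 had the fewest B cell transcripts of the WT mice. Under TMM scaling it also had the highest level among them in 74 of the 84 respiratory members tested. That ranking depends on the scaling, with TMM factors of 1.43, 0.873 and 1.48 in WT 1, WT 2 and WT 3. The members took 0.342%, 0.27% and 0.344% of the library total in these mice. Of the counts outside the 10 most abundant genes they took 0.761%, 0.791% and 0.748%. The labelled tissue was checked by 15 gland epithelial markers, which summed to 1662, 1892 and 2010.1 CPM in WT, 2060.2 to 2161 in *Tlr7* KO and 2132 to 2219.8 in *Ifnar1* KO. The sum and the single markers differ in direction: 3 were called higher and 5 lower in *Tlr7* KO (median log2 fold change -0.09), and 1 higher and 3 lower in *Ifnar1* KO (median -0.00474). T cell markers were also lower (6 and 7 of 8 called), as were myeloid markers (5 of 8 in each), at 301 to 556 CPM summed in WT, 218 to 283 in *Tlr7* KO and 72.2 to 203 in *Ifnar1* KO. Smooth muscle and pericyte markers summed to 93.0 to 119 CPM in WT, 46.8 to 64.7 in *Tlr7* KO and 61.6 to 63.4 in *Ifnar1* KO, with 5 and 2 of 9 called lower. Plasma cell markers went both ways, with 2 of 7 higher and 3 lower in *Tlr7* KO and 2 higher and 1 lower in *Ifnar1* KO, and summed to 376 to 454 CPM in WT, 265 to 315 in *Tlr7* KO and 321 to 545 in *Ifnar1* KO. In whole glands, more cells of a type and more RNA per cell cannot be told apart, and the part of the cell makeup in the results below was not tested. WT 1, WT 2 and *Tlr7* KO 4 also held skeletal muscle transcripts, at 345 to 492 CPM summed over 13 markers, against 0.266 to 13.1 in the other 8 mice, and the count of members called in each comparison is given below with and without these libraries.

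In the lacrimal gland all 4 complexes were expressed and the assembly factors were the lowest class. Levels between genes are compared as CPM per kilobase of transcript, averaged over the 11 mice. Over the 84 members tested, as defined below, the class medians were 56.4 for complex V, 49.5 for complex III, 48.8 for complex IV (36.9 over all 19 of its members, which include muscle and other isoforms near 0), 23.7 for accessory and 19.4 for core subunits of complex I, and 2.63 for assembly factors. *Atp5b*, the catalytic beta subunit of ATP synthase, stood at 174, and *Ndufa4*, a small subunit first assigned to complex I and now counted with complex IV, at 103. *Uqcr11*, a small subunit of complex III, stood at 93.4, and *Ndufb9*, an accessory subunit of complex I, at 76.8. *Ndufaf4*, which helps to build complex I and is no part of the finished enzyme, stood at 1.78. Of the 91 members, 84 had at least 30 counts summed over the WT mice and were tested. The other 7 (*Ndufs5*, *Ndufab1-ps*, *Ndufs6b*, *Cox4i2*, *Cox6b2*, *Cox8c* and *Ndufa4l2*) had 0 to 12 counts in any mouse, where 3 counts equal 0.0820 to 0.158 CPM. These limits cover counting error only.

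**Figure D1:**
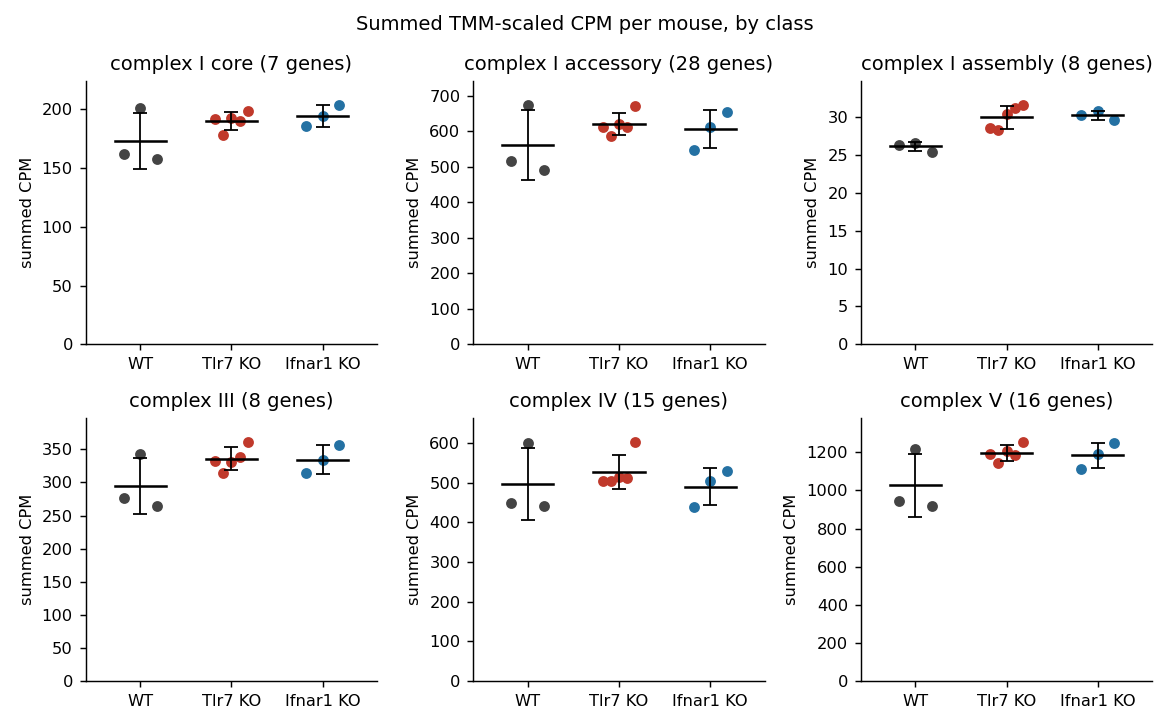
Summed CPM of each class of respiratory genes in every mouse (dots) with the group mean and SD, on TMM-scaled counts. WT 2 sits above WT 1 and WT 3 in the complexes, so the WT range overlaps the KO ranges there. The assembly factors run from 25.4 to 26.6 in WT, 28.3 to 31.6 in *Tlr7* KO and 29.6 to 30.8 in *Ifnar1* KO. Of these 8 genes only *Ndufaf4* was called in either comparison with WT, and the class median log2 fold changes were 0.07 and 0.02. Among all single genes tested, 16.6% and 20.7% had every KO mouse above every WT mouse.

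Respiratory genes were compared first between *Tlr7* KO and WT glands. Of the 84 members tested, 14 were higher in *Tlr7* KO and 0 were lower (edgeR quasi-likelihood test, Benjamini-Hochberg adjusted p under 0.05 over 13937 genes, with 23 members at an unadjusted p under 0.05, and DESeq2 calling 16 higher and 0 lower). The 14 make 16.7% of the members, and the share called higher over all genes tested was 15.3%, so in this fit the share that rose was near the background. The background for lower calls was 17.4%. The median log2 fold change of the members was 0.15, against -0.04 over all genes, and 69 of the 84 lay above that all-gene median. In 14 members every *Tlr7* KO mouse lay above every WT mouse (16.6% of all genes did so), and in 1 member, *Ndufaf6*, every *Tlr7* KO mouse lay below (14.2% of all genes).

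These rises are relative to the scaling. TMM factors ran from 0.688 to 1.48 across the mice. With counts divided by the library total alone, the median of all genes moved to -0.54 and that of the members to -0.32, with 0 members higher (0.883% of all genes were under this scaling) and 15 lower (17.9%, against 30.7%). With the 10 most abundant genes left out of the total the medians were -0.47 and -0.27, with 0 higher (2.22% of all genes) and 50 lower (59.5%, against 50.7%). Under each of these scalings the members' median stayed above that of all genes, and *Ndufc2* and *Ndufaf4* were the only members above 0 under the library total. The number of rises also rested on single WT mice: 3 members were called higher without WT 1 (3.66%, against 10.3% of all genes in that fit), 48 without WT 2 (57.8% against 23.3%) and 4 without WT 3 (4.76% against 10%). Leaving out 1 *Tlr7* KO mouse at a time gave 6, 14, 7, 7 and 9 (for *Tlr7* KO 1 to 5), where 11.1% to 14.0% of all genes were called higher. Leaving out the 3 libraries with muscle transcripts gave 30 (35.7%, against 15.5% of all genes), with a median of 0.31 against -0.01 for all genes. That fit holds WT 3 as its 1 WT mouse, which is assumed to vary like the *Tlr7* KO mice, so it is a comparison with a single WT gland.

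**Figure D2:**
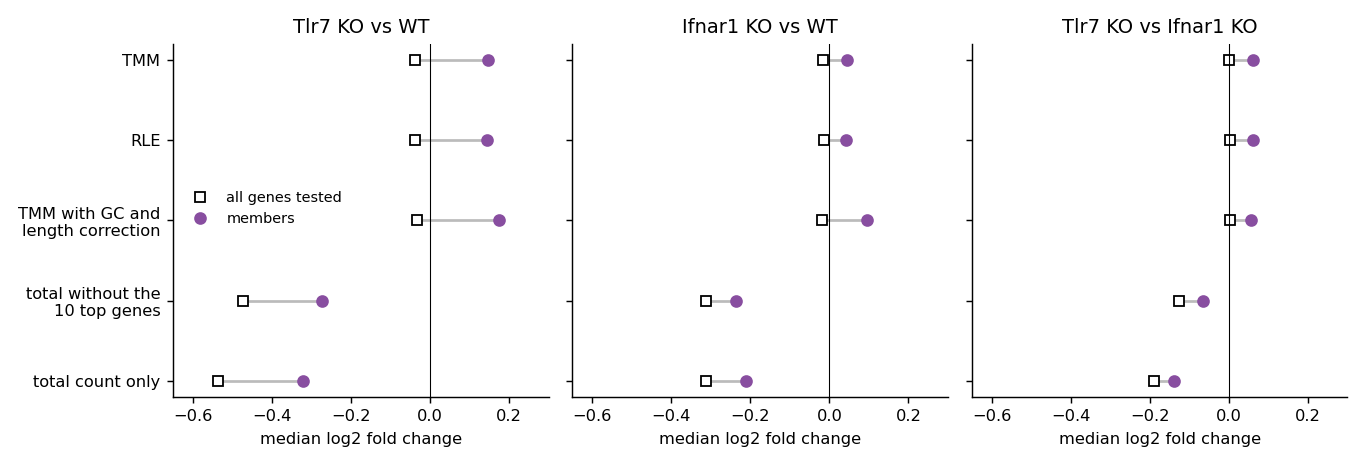
Median log2 fold change of the respiratory members and of all genes tested under 5 ways of scaling or correcting the libraries, for each comparison. The members' median lies above the all-gene median in every pair, but for *Tlr7* KO against WT it turns from 0.15 under TMM to -0.32 under the library total, and for *Ifnar1* KO against WT from 0.04 to -0.21.

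In complex I, 6 of 45 members tested rose in *Tlr7* KO glands (1 of 7 core subunits, 4 of 28 accessory subunits, 1 of 8 assembly factors and 0 of 2 copies), and the 2 largest rises of all members were in this complex. These class shares (14.3%, 14.3%, 12.5% and 0%) were each below the 15.3% of all genes called higher. *Ndufc2*, an accessory subunit of the membrane arm (chromosome 7, 97400003 to 97407802), stood at 23.5, 26.7 and 20.1 CPM in the WT mice and at 30.6, 35.3, 41.7, 35.5 and 41.6 CPM in the *Tlr7* KO mice. Every *Tlr7* KO mouse was above every WT mouse, and the log2 fold change was 0.66 (SE 0.127, adjusted p = 0.00572). *Ndufaf4* (chromosome 4, 24898083 to 24905001), whose protein chaperones the early part of the complex, stood at 5.20, 4.76 and 4.21 CPM in WT and at 7.19, 6.39, 7.59, 7.25 and 6.33 CPM in *Tlr7* KO. These groups did not overlap either (log2 fold change 0.56, SE 0.116, adjusted p = 0.00751). These 2 calls held with any single mouse left out, and each in 16 of 20 alternatives in all.

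*Ndufab1*, the mitochondrial acyl carrier protein (chromosome 7, 122085403 to 122101886), was at 13.1, 16.4 and 15.3 CPM in WT and at 18.5, 20.6, 18.04, 18.6 and 20.3 CPM in *Tlr7* KO, a log2 fold change of 0.36 (SE 0.0904, adjusted p = 0.0157). Its call held in 13 of 20 alternatives, and among the fits with 1 mouse left out it was lost without WT 1. *Ndufs1*, the largest core subunit, with iron-sulfur clusters on the NADH side (chromosome 1, 63143596 to 63176833), was at 19.9, 22.1 and 21.2 CPM in WT and at 26.4, 22.9, 26.8, 26.5 and 27.97 CPM in *Tlr7* KO (log2 fold change 0.31, SE 0.0793, adjusted p = 0.0175), and its call held in 12 of 20 alternatives and was lost without WT 1 or WT 3. With 1 mouse left out, the log2 fold changes ran from 0.28 to 0.42 for *Ndufab1* and 0.27 to 0.35 for *Ndufs1*. Both genes had all *Tlr7* KO mice above all WT mice. The other complex I members called, named after their values were seen, were the accessory subunits *Ndufa10* (0.34) and *Ndufa9* (0.32). *Ndufv1*, the core subunit that binds NADH, had a log2 fold change of 0.23 (adjusted p = 0.101). *Ndufb8* and *Ndufb9*, accessory subunits of the membrane arm, were at 0.04 and 0.15 (adjusted p = 0.838 and 0.464). The assembly factor *Ndufaf7*, a methyltransferase, was at 4.34 to 4.62 CPM in WT and 4.97 to 5.66 CPM in *Tlr7* KO (0.24, adjusted p = 0.110), and *Ndufaf6*, named after its values were seen, was at -0.55 (adjusted p = 0.133) on 9 to 29 counts per mouse.

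**Figure D3:**
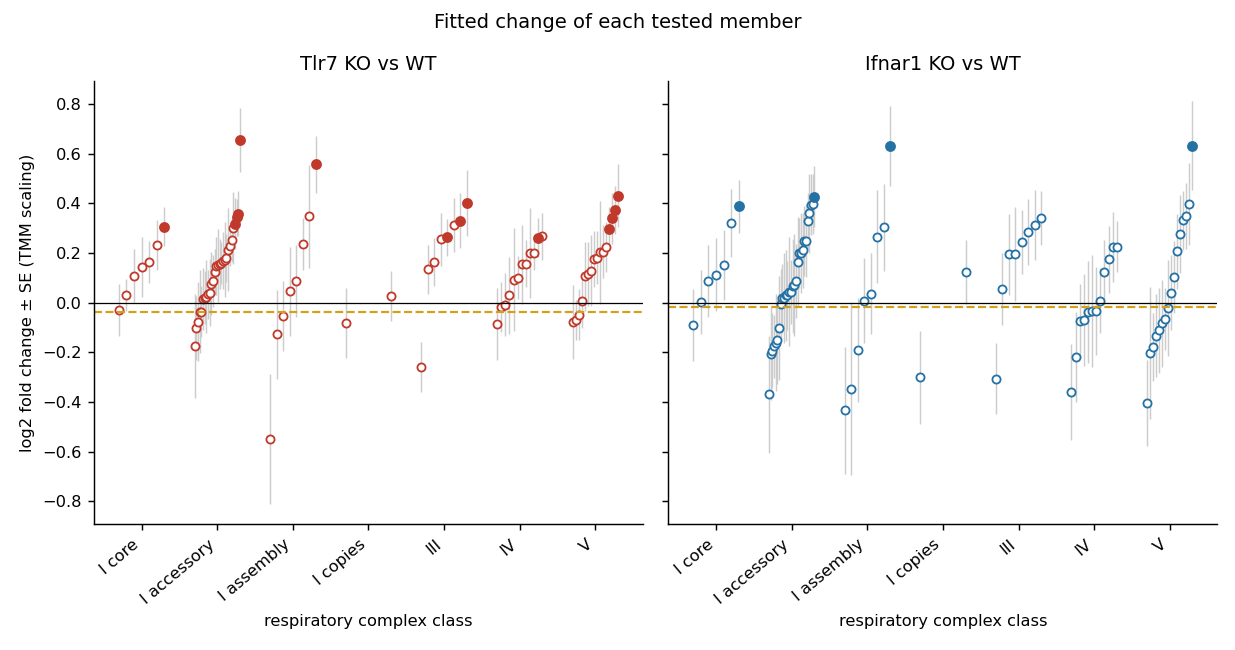
Log2 fold change with its SE for the members tested, by class, in *Tlr7* KO and in *Ifnar1* KO against WT under TMM scaling (filled points, adjusted p under 0.05; dashed line, median of all genes tested; *Cox6a2*, *Cox7a1* and *Cox8b* lie below -1 and are left out). The filled points lie above 0 in both comparisons under this scaling, 14 for *Tlr7* KO and 4 for *Ifnar1* KO (*Cox6a2*, called lower in *Ifnar1* KO, is among those left out), and under the library total no member was called higher in either comparison, where 0.883% and 0.366% of all genes were.

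In complex III, 3 of 8 members rose in *Tlr7* KO glands (37.5%, against 15.3% of all genes) and the class median was 0.26, against -0.04 over all genes. *Uqcrc1*, a core protein of the complex, was at 46.3, 48.4 and 40.8 CPM in WT and at 54.2, 53.2, 54.2, 55.4 and 54.5 CPM in *Tlr7* KO. The *Tlr7* KO values were close together and all above WT (log2 fold change 0.26, SE 0.0737, adjusted p = 0.0236). *Uqcr11* (chromosome 10, 80402997 to 80406830) was at 30.3, 43.6 and 30.9 CPM in WT and at 45.5, 41.2, 45.6, 45.3 and 53.1 CPM in *Tlr7* KO, so that WT 2 lay within the *Tlr7* KO range (0.40, SE 0.133, adjusted p = 0.0442). The partner core protein *Uqcrc2* was at 0.16 (adjusted p = 0.221), with WT at 44.1, 53.9 and 40.8 CPM and *Tlr7* KO at 48.0 to 54.0. Of the small subunits, *Uqcrq* was called (0.33), and *Uqcrh*, the hinge protein, had the only negative value of the class, at -0.26 (adjusted p = 0.0772), and both were picked out after their values were seen.

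In complex IV, 1 of 15 members tested rose in *Tlr7* KO glands, *Cox5a* at 0.26 (adjusted p = 0.0330, named after its values were seen), and the class median was 0.09. The share called higher was 6.67%, below the 15.3% of all genes. *Cox4i1*, the widely expressed form of a subunit that binds regulators, was at 67.7, 91.2 and 70.2 CPM in WT and at 76.8, 75.6, 75.7, 74.0 and 75.7 CPM in *Tlr7* KO. The WT spread was several times that of *Tlr7* KO, and the log2 fold change was -0.02 (SE 0.100). *Cox7a2l*, which takes part in joining complexes III and IV, was at 66.7, 99.5 and 64.6 CPM in WT and at 69.9, 67.1, 71.6, 69.9 and 84.4 CPM in *Tlr7* KO (-0.09, SE 0.146, adjusted p = 0.678). In both genes WT 2 stood above every other mouse under TMM scaling, a ranking that depends on the scaling as given above. *Tlr7* KO 5 stood apart from its group in several complex IV genes under TMM scaling, where its factor (0.688) was the lowest of all mice. *Ndufa4* was at 54.2, 53.6, 55.7, 52.9 and 77.5 CPM in the *Tlr7* KO mice and *Cox7b* at 44.3, 46.9, 48.3, 46.2 and 62.8, with log2 fold changes of 0.20 and 0.15 (adjusted p = 0.426 and 0.479).

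In complex V, 4 of 16 members rose in *Tlr7* KO glands (25%, against 15.3% of all genes), with a class median of 0.18, against -0.04 over all genes. *Atp5b* (chromosome 10, 128083273 to 128090391) was at 258, 321 and 247 CPM in WT and at 354, 332, 361, 355 and 340 CPM in *Tlr7* KO, a log2 fold change of 0.34 (SE 0.104, adjusted p = 0.0337). Its partner *Atp5a1*, the alpha subunit, was at 166, 211 and 164 CPM in WT and at 219, 201, 212, 217 and 207 CPM in *Tlr7* KO (0.23, SE 0.101, adjusted p = 0.114). The alpha and beta subunits form the catalytic head, and of these 2 only *Atp5b* was called, with no test of the difference. *Atp5g1* and *Atp5g3* encode the same mature c subunit of the membrane rotor from separate genes. *Atp5g1* (chromosome 11, 96068852 to 96075670) was at 10.02, 11.4 and 9.56 CPM in WT and at 13.7, 11.7, 14.2, 12.8 and 17.3 CPM in *Tlr7* KO (0.43, SE 0.126, adjusted p = 0.0279). *Atp5g3*, the more abundant, was at 48.6, 59.0 and 47.0 CPM in WT and at 61.3, 59.9, 65.5, 64.2 and 65.8 CPM in *Tlr7* KO (0.30, SE 0.0894, adjusted p = 0.0318). In both genes the groups did not overlap. *Atp5d*, the delta subunit of the rotor stalk, was the other complex V call (0.37, adjusted p = 0.0177) and was named after its values were seen. For 5 of these members (*Atp5b*, *Atp5g1*, *Atp5g3*, *Uqcr11* and *Uqcrc1*) the call was lost without WT 1, without WT 3 and without at least 2 of the *Tlr7* KO mice, left out singly. In the fits with 1 mouse left out their log2 fold changes ran from 0.27 to 0.46 for *Atp5b*, 0.34 to 0.50 for *Atp5g1* and 0.23 to 0.40 for *Atp5g3*. Those of *Uqcr11* ran from 0.31 to 0.59 and those of *Uqcrc1* from 0.19 to 0.31.

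*Ifnar1* KO glands were then compared with the same WT mice. Of the 84 members, 4 were higher (4.76%, against 6.76% of all genes) and 1 was lower (12.4% of all genes were), with 16 at an unadjusted p under 0.05. The median log2 fold change was 0.04 against -0.02 over all genes. In 15 members every *Ifnar1* KO mouse lay above every WT mouse (20.7% of all genes) and in 2 below (21.1%). Class medians were 0.11 and 0.06 for core and accessory subunits of complex I, 0.02 for assembly factors, 0.22 for complex III, -0.04 for complex IV and 0.01 for complex V. With the library total as the scale, the members' median was -0.21 and that of all genes -0.31, with 0 members higher (0.366% of all genes were) and 1 lower (1.19%, against 9.24%).

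The 4 genes that were higher in *Ifnar1* KO are given here beside the WT values above, which both comparisons share. *Ndufaf4* was at 8.51, 7.06 and 6.70 CPM in *Ifnar1* KO (log2 fold change 0.63, SE 0.161, adjusted p = 0.0367), and *Atp5g1* at 12.6, 16.5 and 19.4 CPM (0.63, SE 0.179, adjusted p = 0.0479). *Ndufab1* was at 20.5, 19.2 and 21.4 CPM (0.43, SE 0.122, adjusted p = 0.0485), and *Ndufs1* at 26.3, 27.6 and 29.9 CPM (0.39, SE 0.108, adjusted p = 0.0456). In each of the 4 every *Ifnar1* KO mouse was above every WT mouse. None of the calls held in every fit with a mouse left out: 0 members were called higher without WT 1, without WT 3 or without any 1 *Ifnar1* KO mouse, and 16 without WT 2 (19.3%, against 13.6% of all genes in that fit). Few genes of any kind were called in most of the fits with 0 members called (13 of 13114 without WT 1, 103 of 12903 without WT 3, 0 of 13937 without *Ifnar1* KO 1 or *Ifnar1* KO 3, and 1590 without *Ifnar1* KO 2), so the lost calls say little about the members. The log2 fold changes ran from 0.54 to 0.70 for *Ndufaf4*, 0.46 to 0.80 for *Atp5g1*, 0.34 to 0.49 for *Ndufab1* and 0.32 to 0.45 for *Ndufs1*. Leaving out the 3 libraries with muscle transcripts, which leaves 1 WT mouse, gave 0 calls (2.22% of all genes were called higher) with a median of 0.22. Other members had like fold changes that were not called. *Uqcrc1* was at 57.2, 57.9 and 59.0 CPM in *Ifnar1* KO (0.34, adjusted p = 0.0623), *Atp5b* at 357, 368 and 377 CPM (0.40, adjusted p = 0.124) and *Atp5a1* at 223, 213 and 228 CPM (0.28, adjusted p = 0.234). These 3 genes had every *Ifnar1* KO mouse above WT. Within complex V the values ran from -0.40 for *Atp5l* (adjusted p = 0.131), a small membrane subunit named after its values were seen, to 0.63 for *Atp5g1*. *Ndufc2*, the largest rise in *Tlr7* KO, was at 24.3, 30.9 and 29.5 CPM in *Ifnar1* KO, overlapping WT (0.25, SE 0.147, adjusted p = 0.252).

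The KO groups were also compared with each other. No member was called between *Tlr7* KO and *Ifnar1* KO (0 of 84 by edgeR and 0 by DESeq2, with 5 at an unadjusted p under 0.05), where 0.926% of all genes were called higher and 0.868% lower in *Tlr7* KO. The members' median was 0.06 against 0.00 for all genes. *Ndufc2* gave a log2 difference of 0.39 (SE 0.117, adjusted p = 0.136). *Cox6c*, named after its values were seen, gave 0.44 (adjusted p = 0.239), with every *Tlr7* KO mouse above every *Ifnar1* KO mouse. When fold changes were corrected for GC content and length, 3 short members (*Ndufa1*, *Ndufc2* and *Uqcr10*) were called higher in *Tlr7* KO (3.57%, against 1.03% of all genes), and without the 3 libraries with muscle transcripts 0 were called, with a median of 0.04.

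The balance between complexes was described as the percent of the members' summed CPM taken by each, in which the scaling of a library cancels. The complex V share was 39.3% to 39.6% in WT, 39.8% to 41.3% in *Tlr7* KO and 40.9% to 42.0% in *Ifnar1* KO, with no overlap between WT and either KO group. The complex IV share was 18.7% to 19.4% in WT, 17.5% to 19.1% in *Tlr7* KO and 16.5% to 17.5% in *Ifnar1* KO. Complex I took 30.1% to 30.4%, 29.4% to 29.8% and 29.8% to 30.1%, and complex III 11.1% to 11.5%, 11.3% to 11.7% and 11.5% to 11.8%. The mean differences from WT in the complex V share were 1.5 percentage points in *Tlr7* KO and 1.95 in *Ifnar1* KO, and in the complex IV share -1.03 and -1.93. With 1 mouse left out at a time, these ran from 1.39 to 1.77 and 1.64 to 2.18 for complex V, and from -1.31 to -0.843 and -2.12 to -1.63 for complex IV. The share rests largely on 2 abundant genes. *Atp5a1* and *Atp5b* together took 17.2% to 17.7% in WT, 17.4% to 19.8% in *Tlr7* KO and 19.8% to 21.8% in *Ifnar1* KO. With these 2 genes left out of the sum, complex V took 26.3% to 26.7%, 26.5% to 27.2% and 25.8% to 26.4%, so that the ranges overlapped, while complex IV took 22.7% to 23.4%, 21.8% to 23.1% and 21.1% to 21.9%. The mean complex V share was then 26.6% in WT, 26.9% in *Tlr7* KO and 26.1% in *Ifnar1* KO. The *Ifnar1* KO difference in that share thus turned from above WT to below it. The shares were looked at after the data had been seen and carry no test.

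**Figure D4:**
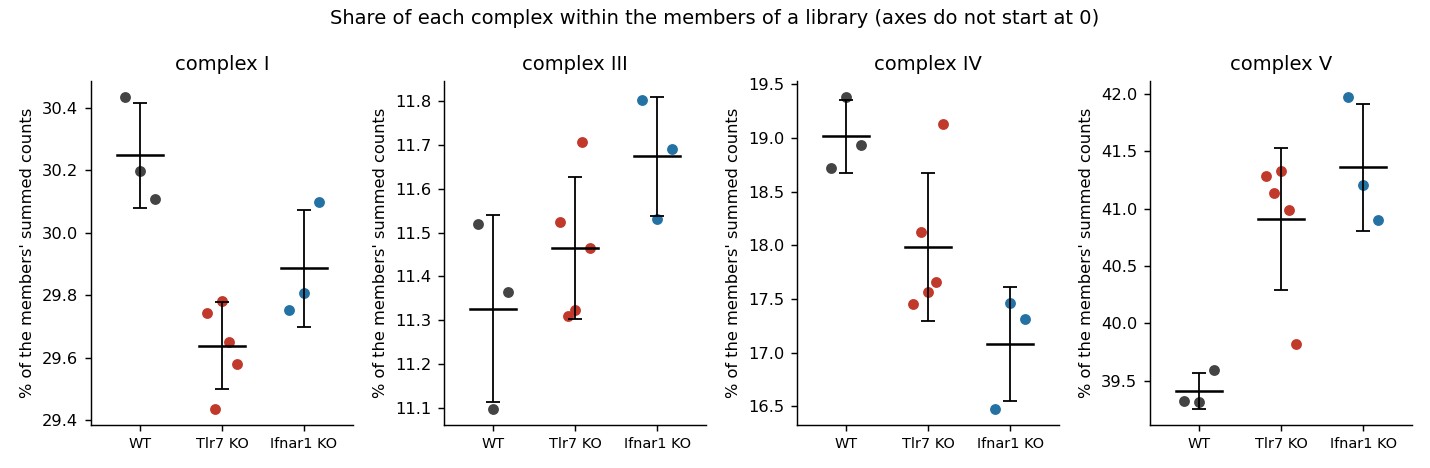
Percent of the members' summed CPM taken by complexes I, III, IV and V in each mouse (dots) with mean and SD. The axes do not start at 0. Complex V lies at 39.3% to 39.6% in WT and at 40.9% to 42.0% in *Ifnar1* KO, and complex IV lies at 18.7% to 19.4% and at 16.5% to 17.5%.

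Several complex IV subunits come as paired isoforms, and in the gland the widely expressed form was the main one in each pair. *Cox6a1* was at 32.5 to 40.7 CPM in WT, 36.8 to 43.2 in *Tlr7* KO and 36.1 to 43.6 in *Ifnar1* KO, and *Cox8a* and *Cox7a2* were of like level. The striated muscle forms *Cox6a2*, *Cox7a1* and *Cox8b* were at a few CPM or less. *Cox6a2* (chromosome 7, 128205435 to 128206387) had 73, 50 and 7 counts in the WT mice, 0, 0, 0, 48 and 0 in the *Tlr7* KO mice and 4, 4 and 0 in the *Ifnar1* KO mice. *Cox7a1* had 23, 8 and 3 counts in WT, 0, 0, 4, 14 and 1 in *Tlr7* KO and 2, 1 and 1 in *Ifnar1* KO. *Cox8b* had 41, 23 and 0 counts in WT, 2, 2, 0, 21 and 0 in *Tlr7* KO and 0, 3 and 1 in *Ifnar1* KO. The high values were in WT 1, WT 2 and *Tlr7* KO 4, the libraries that held the skeletal muscle markers. The skeletal muscle markers stood at 492, 345 and 0.820 CPM in WT, at 0.383, 0.478, 0.266, 352 and 0.686 in *Tlr7* KO and at 0.476, 13.1 and 0.419 in *Ifnar1* KO. *Cox6a2* was the 1 member called lower in *Ifnar1* KO (log2 fold change -3.97, SE 1.09, adjusted p = 0.0439). It passed the filter on low values through the WT mice, where it is high, so the call is a description and supports nothing, and with edgeR's filterByExpr in place of that filter 0 members were lower. Without the 3 libraries the value was -0.96 in *Ifnar1* KO (adjusted p = 0.602). In *Tlr7* KO the fitted value was -1.97 with all mice (adjusted p = 0.292) and -5.35 without the 3 libraries (adjusted p = 0.0659), where 7 counts in WT 3 stood against 0 in each of the 4 remaining *Tlr7* KO mice and the fitted size depends on the prior count. The isoforms *Cox4i2*, *Cox6b2* and *Cox8c* and the complex IV homologue *Ndufa4l2* had at most 8 counts in any mouse and were not tested.

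**Figure D5:**
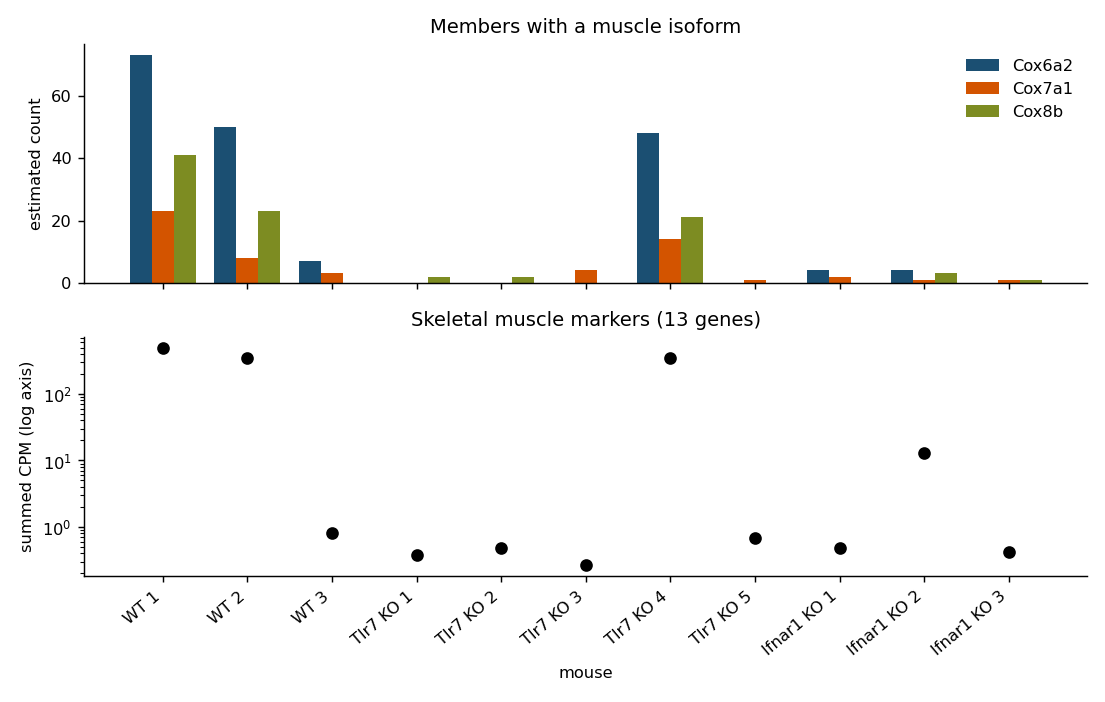
Counts of the striated muscle isoforms *Cox6a2*, *Cox7a1* and *Cox8b* in each mouse (bars), above the summed CPM of 13 skeletal muscle markers in the same mice (dots, log axis). Each isoform is highest in WT 1, WT 2 and *Tlr7* KO 4, where the markers are at 345 to 492 CPM, and the remaining 8 mice have 0 to 7 counts.

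Other mitochondrial genes were read beside the members under the same TMM scaling, where all genes had medians of -0.04 in *Tlr7* KO and -0.02 in *Ifnar1* KO, 15.3% and 6.76% were called higher and 17.4% and 12.4% lower. Of 12 protein-coding genes of the mitochondrial DNA in the main table (mt-Nd4l was not analysed here), 4 rose in *Tlr7* KO (33.3%, median 0.19) and 1 fell in *Ifnar1* KO (median 0.08). The 4 were the complex I subunits *mt-Nd2* (log2 fold change 0.50), *mt-Nd4* (0.37), *mt-Nd5* (0.44) and *mt-Nd6* (0.44), and the 1 was *mt-Nd3* at -0.97 (adjusted p = 0.0235). The 8 complex II genes listed were its subunits, which feed electrons from succinate, and its assembly factors. Of these 8, 1 rose in *Tlr7* KO, the subunit *Sdhb* at 0.46 (edgeR adjusted p = 0.00923). In *Ifnar1* KO 0 were called, and the medians were 0.13 in *Tlr7* KO and 0.05 in *Ifnar1* KO. Of 29 genes for cytochrome c and the assembly or regulation of complexes III to V, 4 rose and 1 fell in *Tlr7* KO (median 0.19), and 3 rose and 2 fell in *Ifnar1* KO (median 0.20). Among these, *Cox15*, needed to make the heme of complex IV, was at 7.60 ± 0.755 CPM in WT (SD, n = 3), 11.8 ± 1.07 in *Tlr7* KO (n = 5) and 11.2 ± 1.29 in *Ifnar1* KO (n = 3), with log2 fold changes of 0.63 and 0.53 (edgeR adjusted p = 0.00324 and 0.0474).

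The citric acid cycle and pyruvate dehydrogenase genes, which supply the NADH, were read as a list of their own. Of 19 tested, 8 rose (42.1%) and 1 fell in *Tlr7* KO (median 0.22), and 4 rose (21.1%) and 1 fell in *Ifnar1* KO (median 0.28), with summed levels of 588 to 654 CPM in WT, 754 to 820 in *Tlr7* KO and 767 to 859 in *Ifnar1* KO. *Pdhx*, which binds the E3 subunit of pyruvate dehydrogenase, had the largest rises (log2 fold change 1.54 and 1.14, adjusted p = 0.00169 and 0.0436). *Suclg2*, the GTP-forming succinate-CoA ligase subunit, fell in both (-0.70 and -0.74, adjusted p = 0.00293 and 0.0216). Of 79 mitochondrial ribosomal protein genes, 16 rose in *Tlr7* KO (20.3%) and 7 in *Ifnar1* KO (8.86%), and 0 fell in either (medians 0.15 and 0.16). Among 15 regulators of mitochondrial biogenesis, 2 rose and 2 fell in *Tlr7* KO (median -0.08): the mitochondrial transcription factors *Tfb1m* (0.34) and *Tfb2m* (0.30) rose, and the transcription factor *Yy1* (-0.33) and the coactivator *Ppargc1a* (-1.49, mean 0.411 CPM in WT) fell. *Ppargc1a* was at 0.337 to 0.513 CPM in WT and 0.0765 to 0.206 in *Tlr7* KO. It passed the filter on low values through the WT mice, where it is high, so its call is a description and supports nothing. In *Ifnar1* KO (median 0.05) 1 rose, the related coactivator *Pprc1* (0.53, adjusted p = 0.0274). Of 21 import and carrier genes, 3 rose and 1 fell in *Tlr7* KO (median 0.13), and 1 rose and 1 fell in *Ifnar1* KO (median 0.16). The gene that fell in both was *Slc25a4*, the ADP/ATP carrier of heart and skeletal muscle (-1.74 and -2.17), with the muscle transcripts of WT 1 and WT 2 as given above.

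Respiratory members are short transcripts, with a median length of 781.5 bases against 2782 over all genes. Of the members with a mean of at least 1 CPM, the 50 under 1000 bases had median log2 fold changes against WT of 0.13 (*Tlr7* KO) and 0.02 (*Ifnar1* KO), and the 30 longer ones of 0.18 and 0.21. Across these 80 members, log2 length and log2 fold change had r = 0.32 in *Tlr7* KO and 0.52 in *Ifnar1* KO against WT, and -0.50 between the KO groups, against 0.02, 0.02 and -0.01 over 11400 genes. The rank correlations (Spearman) were 0.29, 0.48 and -0.51 for the members, against -0.02, 0.03 and -0.12 over the 11400 genes. These describe genes of the same libraries, which are no independent replicates. When fold changes were corrected for GC content and length, 25 members were called higher in *Tlr7* KO (29.8%, against 16.3% of all genes under this correction), and 10 higher (11.9%, against 7.51%) and 1 lower in *Ifnar1* KO. For some members annotated copies were counted apart, and the 2 deposited tables divided the counts differently. *Ndufs5* had 0 to 12 counts per mouse in the main table and 48 to 72 in the authors' second count table, while its processed pseudogene *Ndufs5-ps* had 276 to 447 and 119 to 190. *Ndufb4* had 98 to 193 and 139 to 250 counts, and its copy *Ndufb4c* 264 to 462 and 4 to 15, so levels of these genes and copies are uncertain. Sharing of reads between a gene and its copy was not tested.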

How the data were processed

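RNA was measured in 11 whole lacrimal glands, 1 per mouse. The main table holds estimated counts per gene deposited by the authors, who per their methods used salmon and tximport. It is named as normalized, but its column totals differ and the values were used as counts, rounded to whole numbers as deposited. The second table holds counts per gene deposited by the authors, aligned to mm10 with HISAT2 2.1.0 after bcl2fastq per the submitters' processing notes, and its counter is not given in the sources used here. It has 1 column that matches no sample here and was not used. Total counts in the second table were 12233586 to 16621073.

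Each pair of groups was fitted separately with edgeR 4.0.16 (TMM factors, quasi-likelihood F test, R 4.3.3) on genes with at least 30 counts summed over the WT mice. Adjusted p-values are Benjamini-Hochberg over all 13937 genes tested, a gene was called at an adjusted p under 0.05, and the SE is the log2 fold change divided by the root of the F statistic. Adjusted p-values in the report are from edgeR unless another tool is named. The fit was tested on simulated data, whose outcome is not reported here, so no result rests on that test. Alternatives were DESeq2 1.42.0, other scalings, filters and count table, a single fit, a replicate block, a GC and length correction, and each mouse left out in turn.

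Members named were the 2 most abundant of each class, the 4 largest calls by direction, and isoform families, with others said to be chosen after their values were seen, and 1 member that this rule names is not reported here. The members and lists were chosen with earlier results of these data known. Gene coordinates are GRCm38 (GENCODE M21). No test was run over a list, and mitochondrial lists are given as counts and medians, with those of all genes stated once.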

Additional observations from a re-analysis of the deposited data

Results flagged for a closer look

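A sample far from the others was looked for in 55 sets of 5 *Tlr7* KO values, and 13 stood out by Dixon's ratio (the gap to the nearest mouse over the range, critical value 0.71). Chance flags about 1 in 20 such groups. *Tlr7* KO 5 was the highest for the summed CPM of complex IV (ratio 0.898), for cytochrome c and assembly genes (0.837), and for the complex IV genes *Cox8a* (0.862), *Ndufa4* (0.885), *Cox7b* (0.783) and *Cox7a2l* (0.738). These values depend on the scaling. Its TMM factor was 0.688, against 0.914 to 0.977 in the other *Tlr7* KO mice, and the members took 0.217% of its library total, against 0.256% to 0.283%. The complex IV share of the members' sum, where the scaling cancels, was 19.1% in *Tlr7* KO 5 and 17.5% to 18.1% in the others. *Tlr7* KO 4 was the highest for the summed skeletal muscle markers (0.999) and for the muscle isoforms *Cox6a2* (1), *Cox8b* (0.899) and *Cox7a1* (0.737). *Tlr7* KO 2 stood apart for the complex II sum (0.772), the T cell sum (0.754) and *Ndufb9* (0.769). No cause was tested.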

How the results depend on the processing

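For *Tlr7* KO against WT, 14 members were higher, 0 lower and the median was 0.15. The library total as the scale gave 0 higher (0.883% of all genes were), 15 lower and a median of -0.32, and the total without the 10 most abundant genes 0 (2.22% of all genes), 50 and -0.274. In these 2 scalings, in that order, the fold changes turned negative for *Atp5b* (-0.124 and -0.0818), *Atp5g1* (-0.0677 and -0.0048), *Atp5g3* (-0.178 and -0.129), *Ndufab1* (-0.129 and -0.0728), *Ndufs1* (-0.191 and -0.13), *Uqcr11* (-0.0591 and -0.0176) and *Uqcrc1* (-0.223 and -0.168). No gene filter gave 9 higher (9.89%, against 9.95% of all genes), an adjusted p under 0.01 gave 3 (3.57%, against 6.95%), the GC and length correction 25, and leaving out the 3 libraries with muscle transcripts, chosen after seeing the data, 30. Leaving out 1 mouse gave 3 to 48 higher (3 without WT 1, 4 without WT 3, 48 without WT 2), 0 to 1 lower (*Uqcrh* without WT 3, *Cox6a2* without *Tlr7* KO 4) and medians of 0.0549 to 0.268. For *Ifnar1* KO against WT, 4 were higher and 1 lower. DESeq2 gave 8 higher (9.52%, against 9.06% of all genes in that fit), no gene filter 1 (1.1% against 4.26%), the other table gave 1 higher (1.18% against 6.59%), filterByExpr 1 (1.23% against 6.44%) and 0 lower, the single fit 15 (17.9% against 17.6%) and 0 lower, the GC and length correction 10, the library total 0 (0.366% of all genes) with a median of -0.211, the total without the 10 genes 0 higher (1.22%), 12 lower (14.3%, against 16.7% of all genes) and a median of -0.236, and both an adjusted p under 0.01 (1 of 13937 genes was called) and leaving out the muscle libraries (2.22% of all genes higher, 9.51% lower) 0 and 0. Leaving out 1 mouse gave 0 to 16 higher (16 without WT 2, 19.3% against 13.6% of all genes), 0 lower in each fit and medians of -0.0205 to 0.202. Between the KO groups, the GC and length correction called 3 members higher in *Tlr7* KO (3.57%, against 1.03% of all genes), and leaving out 1 mouse called 0 each time. The differences in complex shares kept their direction with the other table and without any mouse. With *Atp5a1* and *Atp5b* left out of the sum, the complex V difference in *Ifnar1* KO turned to below WT. The mean complex I share was then 36.7% in WT, 36.7% in *Tlr7* KO and 37.6% in *Ifnar1* KO, so the *Ifnar1* KO difference turned to above WT. The causes were not tested.

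The correlations of same-numbered mice ran from -0.44 to 0.34, and between the KO groups they were 0.0641, 0.34 and 0.26. Mice with different numbers were not set beside them, so these values do not decide whether replicate numbers pair the mice. The fits with the replicate block used only numbers present in both groups, so *Tlr7* KO 4 and *Tlr7* KO 5 were left out of them. Fewer mice and the block thus cannot be told apart in their counts. In these fits 0 members were called in each comparison (6, 9 and 5 at an unadjusted p under 0.05), where 17, 0 and 533 of all 13937 genes were called. The members' medians were 0.125, 0.0548 and 0.0141. With the block and the GC and length correction 0, 0 and 3 members were called (3.57%, against 3.24% of all genes higher in that fit). Depth was at least 20512315 counts in each mouse, and members under 3 counts in a mouse could not be told from 0.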
